A study of Mus musculus with 19 samples.

Results

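Bulk liver transcriptomes of mice on a steatohepatitis-inducing diet were compared with those of mice on a control diet, all gavaged with vehicle. The comparison used 9 of the 19 libraries of the series, chosen by their diet and gavage labels: 5 of MASH diet plus vehicle (MD + Veh) and 4 of control diet plus vehicle (CD + Veh), 1 library per mouse. All were wild-type male C57BL/6 mice that entered the study at 8 weeks of age and stayed on their diet for 8 weeks. The MASH diet (MD) held 40% of its energy as fat and 20% as fructose, with 2% cholesterol. The control diet (CD), which the sample labels call chow, held 10% of its energy as fat with matched sucrose. Vehicle was dilute Tween 20 in water, given by mouth every day, and no mouse of these groups received plastic particles. The other 10 libraries came from mice on the same diets gavaged with 2 mg of polyethylene (PE) a day, and they serve here as a repeat of the diet contrast in mice that share no library with the vehicle groups. Mice of a group were housed together, so diet and cage cannot be told apart, and 1 strain, 1 sex and 1 time point limit what the diet groups stand for.

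The liver makes cholesterol and fatty acids, packs them into lipoproteins, stores them in lipid droplets and burns them in mitochondria and peroxisomes. When sterol is plentiful in the endoplasmic reticulum, INSIG proteins hold the SCAP-SREBP complex there, and genes for cholesterol synthesis and uptake are transcribed less, whereas oxysterols activate LXR, a receptor that raises genes of sterol export. SREBP-1c and ChREBP drive fatty acid synthesis, PPARα drives fatty acid oxidation, and in fatty liver hepatocytes also express droplet proteins that are otherwise typical of adipocytes.

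Total counts assigned to genes were 13940970 to 15456729 per library in CD + Veh and 13406037 to 15417813 in MD + Veh, with no detected difference in means (exact permutation test, two-sided, p = 0.532). Levels are given as CPM, the counts of a gene relative to the size of its library scaled by the TMM method, and replicates are listed in order of their label numbers. The hepatocyte genes on a marker list summed to 83938 to 100452 CPM in CD + Veh and 63932 to 79055 CPM in MD + Veh, so the defining markers of liver were abundant in every library. The libraries were numbered 39 to 42 (CD + Veh) and 43 to 47 (MD + Veh), and a division ran through the MD + Veh group: counts of Rps6-ps4, a processed pseudogene of a ribosomal protein, were 1088 to 1690 in the 7 libraries numbered 39 to 45, whereas MD + Veh replicates 4 and 5, like all 10 PE libraries, held 0. Replicates 4 and 5 against CD + Veh thus cross this division, and libraries 39 to 45 lie within it. Counts of calls are therefore also given for libraries 39 to 45 alone, and for MD + Veh replicates 4 and 5 alone against CD + Veh. MD + Veh replicate 1 stood apart by its skeletal muscle genes, which are described with the cell markers.

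Of 13597 genes that passed the filter on low counts, 1410 were called different between the diets (10.4%), 644 higher on MD (4.74% of genes tested) and 766 lower (5.63%). A gene was called where its p, adjusted by Benjamini and Hochberg's method in edgeR's quasi-likelihood test, was below 0.05 and its log2 fold change was 0.38 or more in either direction. The median log2 fold change was -0.0042 over all genes tested, and the median absolute change of called genes was 0.70, with a median standard error (SE) of 0.158. At a change of 1 or more, 256 genes were higher and 183 lower, and at 3 or more the counts were 58 and 15. Without MD + Veh replicate 1, the library with muscle genes, 168 of the 256 rises and 166 of the 183 falls were still called, as were 18 of the 58 rises and all 15 falls, and 4.42% of genes were called higher and 4.65% lower. The libraries of the groups did not overlap for 2209 genes (16.2%), which included 1108 of the 1410 called. Protein-coding genes made up 594 of the rises and 710 of the falls (10.6% of 12330 tested), long noncoding RNAs 36 and 22 (7.96% of 729) and pseudogenes 5 and 20 (9.33% of 268). Leaving out 1 of the 9 libraries gave between 1019 and 1479 calls, and 760 genes were called in every such fit. In libraries 39 to 45 alone 1842 genes were called and with MD + Veh replicates 4 and 5 alone 747, and 1134 and 575 of these were among the 1410. The share of genes tested that was called higher was 7.44% in libraries 39 to 45 and 2.54% with replicates 4 and 5 alone, and the share called lower was 6.24% and 3.04%, so that counts for a list are to be read against these shares.

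**Figure D1:**
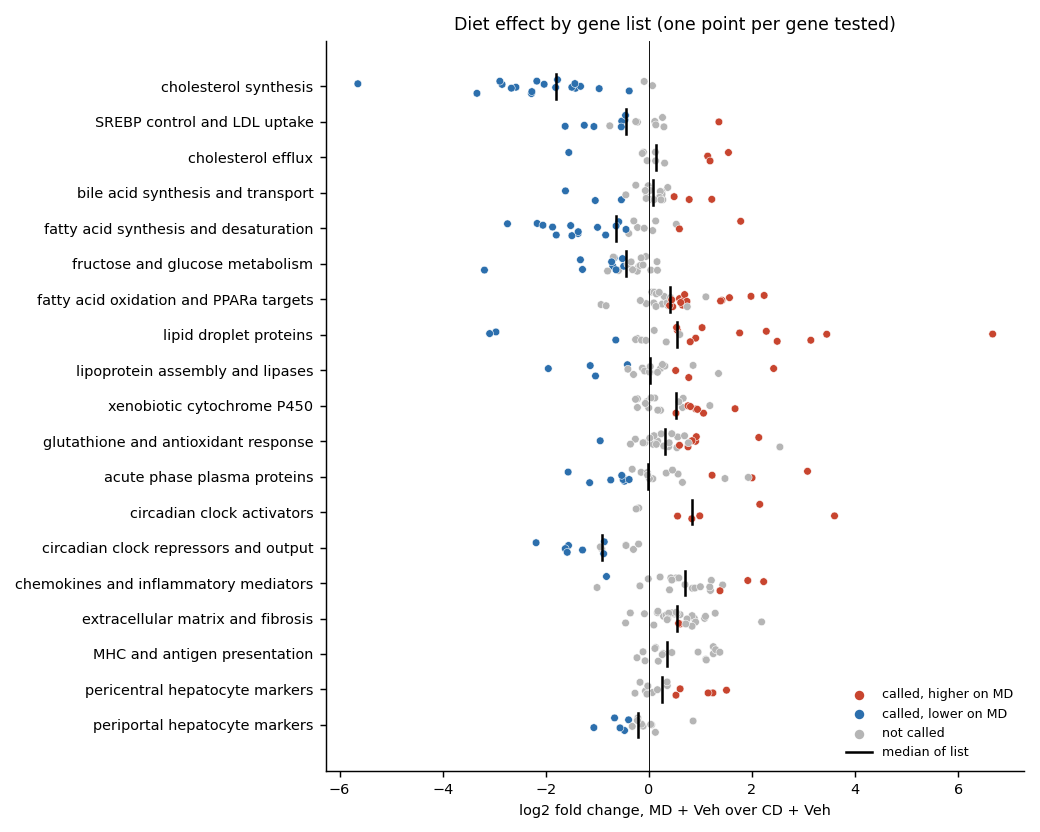
Log2 fold change of MD + Veh over CD + Veh (x axis) for every tested gene of 19 lists (rows), 1 point per gene, red for genes called higher on MD, blue for genes called lower and grey for genes not called, with a black bar at the median of each list. In the cholesterol synthesis row every point but 2 lies well to the left of 0, with a median of -1.81, and the medians of the clock activator and clock repressor rows lie on opposite sides of 0.

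Cholesterol synthesis was the list with the lowest median. Of its 21 enzymes, 19 fell on MD and none rose, against a background of 5.63% of genes lower, and the median log2 fold change was -1.81. Sqle, squalene epoxidase (chromosome 15, 59186869 to 59203043, GRCm39), was at 98.6, 92.04, 60.997 and 133 CPM in CD + Veh and at 1.77, 3.28, 1.36, 1.08 and 1.93 CPM in MD + Veh. Every MD + Veh library lay far below every CD + Veh library (log2 fold change -5.65, SE 0.43, adjusted p = 1.55e-07), which was the largest fall among called genes with at least 5 CPM in the higher group. Idi1, which makes dimethylallyl diphosphate (chromosome 13, 8935537 to 8942487), was at 214, 161, 134 and 293 CPM on CD and 21.2, 21.5, 16.6, 13.9 and 25.9 CPM on MD. The groups again lay apart without overlap (log2 fold change -3.34, SE 0.27, adjusted p = 2.61e-07). Hmgcs1, the cytosolic HMG-CoA synthase gene near the start of the pathway, fell less (log2 fold change -1.42, SE 0.22, adjusted p = 0.000258), from 413, 363, 254 and 569 CPM to 164, 175, 133, 139 and 133 CPM. CD + Veh replicate 4 was the highest library of all 9 for each of these 3 genes. Fdps, farnesyl diphosphate synthase, Nsdhl, a sterol demethylation enzyme, and Tm7sf2, a sterol reductase, fell too, with log2 fold changes of -2.89 (SE 0.303), -2.67 (SE 0.18) and -1.495 (SE 0.13) and adjusted p at or below 3.63e-06. Of the 2 members not called, Ggps1, which makes geranylgeranyl diphosphate for protein prenylation, is named after its values were seen (log2 fold change -0.09, SE 0.13). The summed level of the list was 4247, 4558, 3532 and 5851 CPM in the CD + Veh libraries and 1937, 2025, 1767, 1764 and 1851 CPM in MD + Veh. In libraries 39 to 45 alone 19 members were lower, and with MD + Veh replicates 4 and 5 alone 18.

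Stretches of 120 bases upstream of 3 of these genes are shown because the sterol regulatory element and the CCAAT box are the letters through which SREBP and its partner NF-Y are known to act. They were taken from RefSeq promoters of build GRCm38.p6, and run 5′ to 3′ along the strand of the gene. Capitals mark TCACNCCAC for Hmgcs1 and CCAAT or its complement for Idi1 and Nsdhl.
Hmgcs1, chr13:119690204-119690323 (+): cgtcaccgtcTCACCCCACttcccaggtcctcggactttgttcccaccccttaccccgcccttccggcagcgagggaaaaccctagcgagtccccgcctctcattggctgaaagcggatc
Idi1, chr13:8885486-8885605 (+): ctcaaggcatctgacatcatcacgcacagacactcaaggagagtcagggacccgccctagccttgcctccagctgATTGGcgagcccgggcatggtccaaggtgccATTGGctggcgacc
Nsdhl, chrX:72918401-72918520 (+): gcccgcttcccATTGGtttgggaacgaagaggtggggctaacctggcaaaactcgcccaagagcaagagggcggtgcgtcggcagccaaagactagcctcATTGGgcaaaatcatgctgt
Within 250 bases before the start, on either strand, CCAAT was found in 15 of the 16 list members with a promoter entry (93.8%) and in 40.8% of the 10106 tested genes with an entry. TCACNCCAC was found in 1 of the 16 (6.25%) and in 1.32% of all. In the 17 entries of the fatty acid synthesis list, CCAAT was present in 10 (58.8%), and in the 11 of the clock repressor and output list in 8 (72.7%). Among genes called lower and genes called higher on MD, CCAAT was present in 43.7% and 41.8% of entries. TCACNCCAC was present in 2.1% and 2.31%. Different motifs overlapped in 3 of 13049 promoters searched. These shares describe letters in a window and were not tested.

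Genes that sense and control sterol moved less evenly. Among 15 genes of SREBP control and LDL uptake, 7 fell, 1 rose and 7 were not called (median -0.45), against 5.63% of all genes lower and 4.74% higher. With MD + Veh replicates 4 and 5 alone 4 fell and 1 rose (libraries 39 to 45, 6 and 1). Scap, the escort of SREBP, fell by 1.07 (adjusted p = 2.99e-06), Stard4, a sterol carrier, by 1.25 (adjusted p = 9.69e-06) and Srebf2 by 0.46 (adjusted p = 0.00173). The paired retention genes went apart. Insig2 was at 118, 136, 146 and 115 CPM on CD and 312, 418, 373, 292 and 253 CPM on MD, so that every MD library exceeded every CD library (log2 fold change 1.36, SE 0.18, adjusted p = 4.49e-05). Insig1 was at 428, 579.7, 572 and 429 CPM and 318, 283, 201, 311 and 371 CPM, lower in every MD library but not past the threshold (log2 fold change -0.76, SE 0.27, adjusted p = 0.0677). Srebf1, which encodes SREBP-1, overlapped between the diets and was not called (log2 fold change 0.29, SE 0.22, adjusted p = 0.409).

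Sterol exporters of the canalicular membrane were higher on MD. Abcg5 and Abcg8 form 1 heterodimer that pumps cholesterol into bile, and the genes lie head to head on chromosome 17. Abcg5 was at 73.6, 98.6, 74.7 and 80.4 CPM in CD + Veh and 208, 236, 230.3, 281 and 237 CPM in MD + Veh, and Abcg8 at 82.8, 109.6, 90.99 and 118 CPM and 220.4, 214, 232, 268 and 208 CPM. Neither gene had overlapping groups (Abcg5 log2 fold change 1.54, SE 0.16, adjusted p = 2.88e-06; Abcg8 log2 fold change 1.19, SE 0.18, adjusted p = 0.000232). Abcg1 also rose (1.14, adjusted p = 0.00533), whereas Abca1, another LXR target, was at 208, 174, 183 and 156 CPM and 188, 192, 188, 208 and 211 CPM, overlapping between diets (log2 fold change 0.13, SE 0.11, adjusted p = 0.451). The phospholipid transfer protein gene Pltp was at 72.9, 65.1, 46.97 and 197 CPM on CD and 37.2, 38.2, 38.6, 29.8 and 18.6 CPM on MD. It fell (log2 fold change -1.55, SE 0.37, adjusted p = 0.00745), CD + Veh replicate 4 stood far above the other CD libraries, and the gene was called in 8 of the 9 fits that left out 1 library. Of the 10 efflux genes 3 rose and 1 fell, against 4.74% of all genes higher and 5.63% lower. Both in libraries 39 to 45 alone and with MD + Veh replicates 4 and 5 alone 3 rose and none fell.

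Of 22 bile acid genes 3 rose, 3 fell and 16 were not called (median 0.077), against 4.74% of all genes higher and 5.63% lower. Libraries 39 to 45 alone had 3 rises and 4 falls, and MD + Veh replicates 4 and 5 alone had 2 and 2. Cyp7a1, the rate-limiting enzyme of bile acid synthesis, was at 124, 97.8, 52.4 and 50.4 CPM on CD and 45.4, 117, 80.7, 161 and 118 CPM on MD. The ranges of the diets overlapped widely (log2 fold change 0.37, SE 0.42, adjusted p = 0.609). Slc10a1, the basolateral bile acid uptake carrier (chromosome 12, 80996372 to 81015479), was at 656, 567, 549.6 and 672 CPM and 231, 271, 284, 362 and 337 CPM. It was lower in every MD library (log2 fold change -1.04, SE 0.15, adjusted p = 0.000167). The bile acid receptor gene Nr1h4 fell by 0.53 (adjusted p = 0.00108) and the oxysterol hydroxylase Cyp39a1 by 1.62 (adjusted p = 0.000433). The phospholipid flippase Abcb4 and the basolateral exporter Abcc3 rose by 0.78 and 1.22 (adjusted p = 0.000105 and 0.000374).

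Most genes of fatty acid synthesis fell. Of 23 genes 14 fell, 2 rose and 7 were not called, with a median of -0.64, against 5.63% of all genes lower and 4.74% higher. Acly, which makes cytosolic acetyl-CoA from citrate (chromosome 11, 100367165 to 100440756), was at 885, 1350.0, 923 and 2111 CPM in CD + Veh and 267, 266, 229.7, 261 and 443 CPM in MD + Veh. Replicate 5 was the highest of the MD libraries, and the groups did not overlap (log2 fold change -2.17, SE 0.24, adjusted p = 8.73e-06). Fasn, fatty acid synthase, was at 2501, 2989, 2142 and 3651 CPM and 1181, 1068, 905, 909.7 and 1378 CPM. Its MD values again all lay below the CD values (log2 fold change -1.37, SE 0.28, adjusted p = 0.00224). Acss2, Elovl6, Acaca and Me1, which feed or extend the same chain, fell, with log2 fold changes of -2.74, -1.798, -1.52 and -1.49 (adjusted p at or below 9.71e-05). G6pdx, glucose-6-phosphate dehydrogenase and a source of NADPH, went from 32.4, 30.2, 20.5 and 55.1 CPM to 4.88, 4.77, 4.77, 2.94 and 3.32 CPM, without overlap (log2 fold change -3.05, SE 0.38, adjusted p = 3.09e-05). Scd1, the stearoyl-CoA desaturase, had levels of 21679, 22395, 19874 and 33078 CPM on CD and 23042, 31582, 24671, 25475 and 22771 CPM on MD. The diets overlapped, and the change was 0.07 (SE 0.197, adjusted p = 0.844). Of the other desaturases, Fads1 fell by 0.84 (adjusted p = 0.00884) and Fads2 was not called (log2 fold change -0.39, SE 0.21, adjusted p = 0.221). Elovl3, a chain elongase of very long fatty acids with male-biased expression in mouse liver, ran the other way at 67.6, 107, 124 and 45.1 CPM on CD and 317, 281, 350.2, 298 and 233 CPM on MD. All MD libraries were higher (log2 fold change 1.78, SE 0.31, adjusted p = 0.000762). The other rise was that of Agpat2, an acyltransferase that makes phosphatidic acid, by 0.59 without overlap (adjusted p = 0.00122). With MD + Veh replicates 4 and 5 alone 8 members of the list fell and 2 rose, and with libraries 39 to 45 alone 14 and 3.

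**Figure D2:**
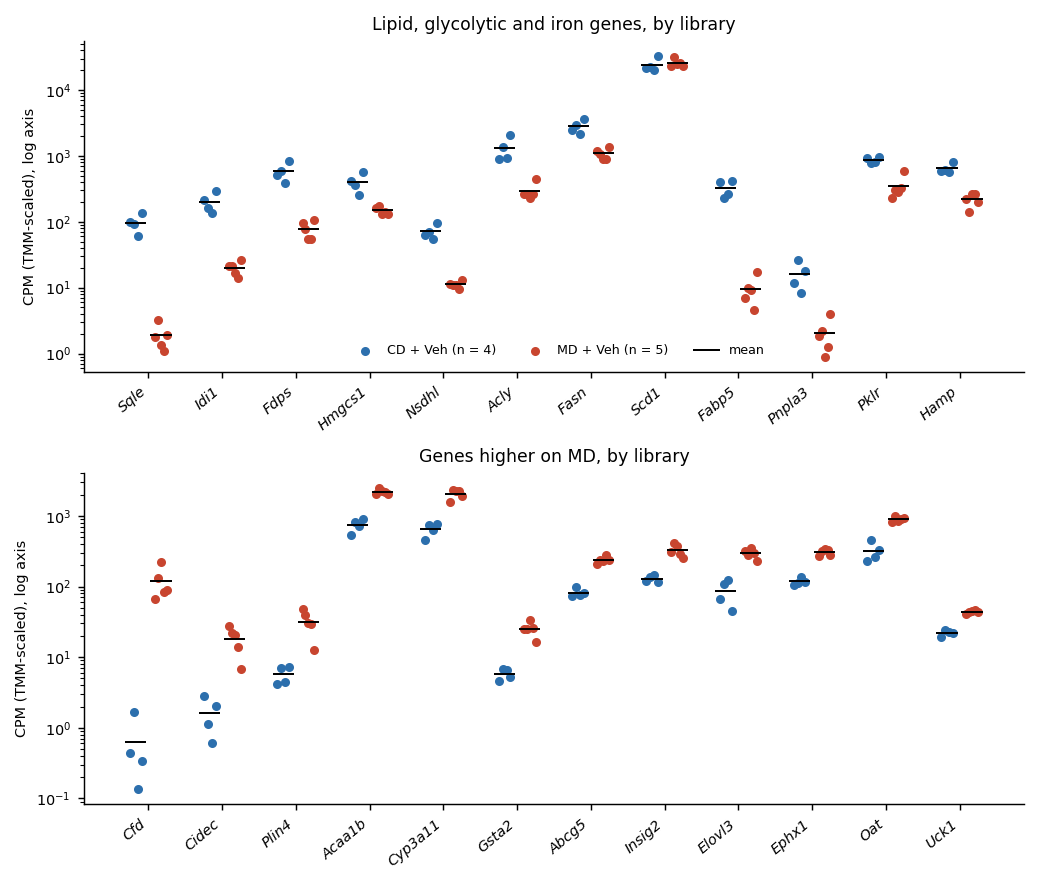
CPM on a log axis (y) of 24 genes (x) in each CD + Veh library (blue, n = 4) and MD + Veh library (red, n = 5), 1 point per library with a black bar at the group mean. In the upper panel the groups lie apart for every gene but Scd1, and in the lower panel all MD + Veh points lie above all CD + Veh points.

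Fabp5, a fatty acid binding protein found in macrophages, skin and lipogenic liver (chromosome 3, 10077602 to 10081674), fell further than any gene of the synthesis list. Its levels were 403, 229, 265 and 418 CPM in CD + Veh and 7.04, 10.03, 9.07, 4.57 and 17.4 CPM in MD + Veh. The diets lay far apart, with MD + Veh replicate 5 the nearest to CD (log2 fold change -5.097, SE 0.35, adjusted p = 4.2e-08). Pnpla3 and Pnpla5, lipases or transacylases of the same family as adipose triglyceride lipase, fell with it. Pnpla3 was at 11.6, 25.9, 8.32 and 17.6 CPM and 1.84, 2.23, 0.886, 1.24 and 3.94 CPM, without overlap (log2 fold change -2.97, SE 0.51, adjusted p = 0.000615). Pnpla5 was at 7.15, 5.23, 3.89 and 8.96 CPM and 0.0634, 0.867, 0.546, 0.3096 and 1.93 CPM, also without overlap (log2 fold change -3.09, SE 0.6001, adjusted p = 0.00171).

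Genes of fructose and glucose use fell or were not called. Of 24, 9 fell and none rose (median -0.45), against 5.63% of all genes lower and 4.74% higher. Pklr, liver pyruvate kinase and a ChREBP target (chromosome 3, 89043449 to 89054619), was at 918, 789, 806 and 964 CPM on CD and 230.3, 305, 286, 328 and 581 CPM on MD, where replicate 5 was the highest. The diets did not overlap (log2 fold change -1.33, SE 0.19, adjusted p = 0.000108). Khk, ketohexokinase, the entry step of fructose, was at 668, 628, 641 and 785 CPM and 328, 441, 431, 393 and 541 CPM, lower in every MD library (log2 fold change -0.67, SE 0.12, adjusted p = 0.000642) on a diet with 20% of its energy as fructose. Slc2a2, the hepatic glucose carrier, fell by 0.51 (adjusted p = 0.00395). Pck1, the gluconeogenic carboxykinase, had a log2 fold change of -0.11 (SE 0.43) and was not called. In libraries 39 to 45 alone 11 members of this list fell, and with MD + Veh replicates 4 and 5 alone 1.

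Genes of lipid droplet proteins and droplet lipid handling rose more often than they fell. Of 21, 11 rose and 3 fell (median 0.55), against 4.74% of all genes higher. Libraries 39 to 45 alone had 9 rises and 3 falls, and MD + Veh replicates 4 and 5 alone 8 and 2. Cidec, a droplet fusion protein of adipocytes and steatotic hepatocytes (chromosome 6, 113400691 to 113412721), was at 2.798, 1.15, 0.604 and 2.02 CPM in CD + Veh and 27.3, 22.1, 20.9, 13.8 and 6.72 CPM in MD + Veh. Every MD library exceeded every CD library, replicate 5 by the least (log2 fold change 3.45, SE 0.53, adjusted p = 0.000239). Plin4, a perilipin, was at 4.23, 6.95, 4.43 and 7.27 CPM and 47.5, 39.6, 30.8, 29.1 and 12.8 CPM, again lowest among MD libraries in replicate 5 (log2 fold change 2.49, SE 0.35, adjusted p = 9.48e-05). Cidea, a relative of Cidec, had 2 counts in all over CD + Veh and 319 over MD + Veh, a ratio of levels of 132 with a 95% exact interval from 36.1 to 1091 that covers counting error only. By library its levels were 0, 0.0716, 0 and 0.0674 CPM and 3.55, 3.16, 9.41, 3.56 and 2.16 CPM (adjusted p = 5.54e-05). Plin2, the general droplet coat of hepatocytes, was at 275, 269, 289.8 and 411 CPM on CD and 438, 521, 459, 430 and 433 CPM on MD. It rose without overlap (log2 fold change 0.55, SE 0.16, adjusted p = 0.0303), though CD + Veh replicate 4 came near the MD libraries, and it was called in 4 of the 9 fits that left out 1 library. Fitm1, a droplet biogenesis gene, rose by 1.76 and Pparg by 0.91 (adjusted p = 3.62e-05 and 0.0316), the latter in 5 of the 9 fits. Abhd5, the coactivator of the main triglyceride lipase, was the third gene to fall after the Pnpla pair (-0.64, adjusted p = 0.00155). Cd36, a fatty acid uptake receptor, and Mogat1, a monoacylglycerol acyltransferase, both named after their values were seen, rose by 2.28 and 3.14 (adjusted p = 0.000286 and 0.000506).

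The largest rise of a called gene with at least 5 CPM in the higher group was that of Cfd, complement factor D or adipsin (chromosome 10, 79726668 to 79728496). It was at 0.435, 1.65, 0.134 and 0.337 CPM in CD + Veh and at 66.9, 133, 224, 84.2 and 88.6 CPM in MD + Veh, with no overlap (log2 fold change 7.56, SE 0.58, adjusted p = 1.55e-07). Of 12 adipocyte markers 8 were tested and 5 rose, namely Cfd, Cidea, Cidec, Plin4 and Fabp4, the last named after its values were seen (1.26, adjusted p = 0.0231, called in 5 of the 9 fits that left out 1 library). The defining markers Adipoq, Plin1, Lep and Retn did not pass the filter on low counts. They were highest in MD + Veh replicate 1, the library with muscle genes, where Adipoq was at 4.18 CPM, Plin1 at 3.99 CPM and Lep at 3.04 CPM, and all 4 were at 0 in MD + Veh replicates 4 and 5. In those 2 libraries Cfd was at 84.2 and 88.6 CPM, and without replicate 1 the log2 fold change of Cfd was 7.73 (adjusted p = 2.35e-07) and that of Cidec 3.27 (adjusted p = 0.000549).

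Part of the fatty acid oxidation genes rose, most of them modestly. Of 32 genes of oxidation, ketogenesis and PPARα response, 14 rose and none fell, with a median of 0.41, against 4.74% of all genes higher and 5.63% lower. Acaa1b, a peroxisomal thiolase (chromosome 9, 118977091 to 118986161), was at 528, 832, 726 and 892 CPM on CD and 2052, 2468, 2247, 2202 and 2024 CPM on MD. The MD libraries all lay higher (log2 fold change 1.56, SE 0.17, adjusted p = 6.44e-06), and part of the reads of this gene could belong to its close copy Acaa1a. The carnitine carrier Slc25a20 rose by 0.68 and Cpt2, a carnitine palmitoyltransferase of the inner mitochondrial membrane, by 0.59 (adjusted p at or below 0.000873). Cpt1a, the gate of mitochondrial import, had a log2 fold change of 0.26 (SE 0.16) and was not called. The receptor gene Ppara was at 70.1, 63.9, 73.5 and 88.4 CPM and 78.7, 96.5, 75.6, 114 and 76.7 CPM, overlapping (log2 fold change 0.25, SE 0.15, adjusted p = 0.264). Cyp4a14, a fatty acid hydroxylase often used as a PPARα readout, varied more within a diet than between diets, at 6.78, 28.7, 5.57 and 77.5 CPM and 28.6, 125, 71.7, 81.5 and 10.9 CPM (log2 fold change 1.105, SE 0.82, adjusted p = 0.403). In libraries 39 to 45 alone 15 members rose, and with MD + Veh replicates 4 and 5 alone 9.

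Lipoprotein genes were called in both directions. Of 20, 3 rose and 4 fell (median 0.025), against 4.74% of all genes higher and 5.63% lower. Libraries 39 to 45 alone had 5 rises and 4 falls and MD + Veh replicates 4 and 5 alone 2 and 1. Lpl, lipoprotein lipase, which adult hepatocytes express little of, was at 17.4, 17.1, 15.4 and 9.83 CPM on CD and 178, 67.95, 69.3, 38.7 and 45.3 CPM on MD. It rose without overlap (log2 fold change 2.42, SE 0.41, adjusted p = 0.000546), and MD + Veh replicate 1, the library with muscle genes, was the highest. Without that library the log2 fold change was 1.91 (adjusted p = 0.000475). Angptl8, an inhibitor of Lpl that insulin induces in liver, was at 235, 91.97, 179.8 and 54.3 CPM and 49.8, 33.3, 27.2, 32.8 and 38.2 CPM. Every MD value was lower (log2 fold change -1.95, SE 0.34, adjusted p = 0.0007999). Apoe, the ligand of remnant receptors, was among the 5 largest rises in CPM, a quantity not divided by gene length, at 18481, 22223, 20990.0 and 21405 CPM and 27271, 30052, 30997, 30295 and 30214 CPM (log2 fold change 0.52, SE 0.12, adjusted p = 0.00714). Apom, an HDL protein, fell by 1.04 (adjusted p = 1.24e-06), Apoa1 by 0.42 (adjusted p = 0.0106), and Apoc2, the activator of Lpl, rose by 0.77 (adjusted p = 0.003899).

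Several secreted liver proteins were lower. Of 23 acute phase genes 8 fell and 3 rose (median -0.026), against 5.63% of all genes lower and 4.74% higher. Hamp, the iron hormone hepcidin (chromosome 7, 30641766 to 30643990), was at 597, 606, 570.4 and 807 CPM in CD + Veh and 218, 141, 263, 264 and 202 CPM in MD + Veh. The diets were far apart (log2 fold change -1.57, SE 0.21, adjusted p = 6.51e-05). Fgb, the fibrinogen β chain, was at 5024, 4794, 5678 and 4789 CPM and 2802, 2955, 3367, 3161 and 2889 CPM, and Fga and Fgg fell with it (Fgb -0.74, Fga -0.48, adjusted p at or below 0.00109 for all 3). Alb, albumin, at 52983, 47454, 56408 and 63092 CPM and 30524, 43304, 43468, 42395 and 36743 CPM, was the largest fall in CPM (log2 fold change -0.48, SE 0.15, adjusted p = 0.0324), and it was called in 4 of the 9 fits that left out 1 library. Orm3, an orosomucoid gene with close copies, rose from 0.684, 1.003, 0.805 and 0.404 CPM to 4.88, 5.82, 10.02, 4.95 and 5.098 CPM, without overlap (log2 fold change 3.08, SE 0.41, adjusted p = 5.82e-05). Saa1, the classical serum amyloid gene, was at 245, 77.4, 146 and 42.8 CPM and 157, 185, 243, 108 and 311 CPM, which overlapped widely (log2 fold change 0.65, SE 0.64, adjusted p = 0.543). The log2 fold changes of Saa3 and Lcn2 were 2.001 and 1.93, and only that of Saa3 was called (adjusted p = 0.0422 and 0.07695), in 1 of the 9 fits that left out 1 library. Without MD + Veh replicate 1, the list had 1 rise and 6 falls, with replicates 4 and 5 alone 2 and 3, and in libraries 39 to 45 alone 5 and 8.

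Several drug and detoxification enzymes rose. Of 21 P450 genes and their regulators tested, 7 rose and none fell (median 0.52), against 4.74% of all genes higher and 5.63% lower. In libraries 39 to 45 alone 5 rose, and with MD + Veh replicates 4 and 5 alone 5. Cyp3a11, the main hepatic Cyp3a enzyme of mice (chromosome 5, 145791236 to 145816867), was at 449, 735, 629.7 and 777 CPM on CD and 1585, 2335, 2229, 2244 and 1918 CPM on MD. All MD libraries were higher (log2 fold change 1.67, SE 0.19, adjusted p = 1.22e-05). Cyp2c29, Cyp2c50 and Cyp3a25 rose by 1.06, 0.91 and 0.94 (adjusted p at or below 0.00563), and Cyp2e1 by 0.52 (adjusted p = 0.0374, called in 4 of the 9 fits that left out 1 library). Families 2c and 3a hold near-identical copies, between which the counting can divide reads. Cyp2b10, the marker of the receptor CAR, and the CAR gene Nr1i3 were not called (1.18, SE 0.69, and 0.22, SE 0.27). Ephx1, microsomal epoxide hydrolase (chromosome 1, 180803775 to 180848537), was at 107, 112, 137 and 115 CPM and 273, 314, 339, 329 and 279 CPM. It rose by more than the whole spread of either group (log2 fold change 1.38, SE 0.09, adjusted p = 3.52e-08). Of 29 glutathione and antioxidant genes 6 rose and 1 fell (median 0.31), to be read against the same shares of 4.74% and 5.63%. Libraries 39 to 45 alone had 13 rises and MD + Veh replicates 4 and 5 alone 5, with no fall in either. Gsta2, a glutathione transferase with close copies, went from 4.602, 6.804, 6.58 and 5.19 CPM to 24.9, 25.3, 34.1, 26.1 and 16.3 CPM, without overlap (log2 fold change 2.13, SE 0.26, adjusted p = 2.66e-05). Gclc, Gss and Gpx1, which make or use glutathione, rose by 0.91, 0.76 and 0.84 (adjusted p at or below 0.000329), whereas Nqo1, a standard NRF2 target, was not called (log2 fold change 0.54, SE 0.38, adjusted p = 0.368).

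Those zonation markers that were called moved in opposite directions. Of 14 pericentral genes 5 rose and none fell (median 0.26), and of 14 periportal genes 5 fell and none rose (median -0.22). Over all genes 4.74% were higher and 5.63% lower. Oat, ornithine aminotransferase of pericentral hepatocytes (chromosome 7, 132159153 to 132191517), was at 227, 452, 261 and 325 CPM on CD and 825, 998, 838, 896 and 929 CPM on MD. The MD libraries lay well above (log2 fold change 1.505, SE 0.196, adjusted p = 4.77e-05). Glul, glutamine synthetase, which marks the innermost pericentral cells, was at 1118, 1383, 1033 and 1309 CPM and 1281, 1270.1, 1303, 1143 and 1348 CPM, overlapping (log2 fold change 0.07, SE 0.097, adjusted p = 0.6896). On the periportal side Cdh1, E-cadherin, was at 84.8, 58.1, 83.2 and 43.6 CPM and 38.1, 29.4, 31.3, 25.5 and 36.4 CPM. It was lower in every MD library (log2 fold change -1.07, SE 0.21, adjusted p = 0.00182), while Cyp2f2 had a log2 fold change of 0.05 (SE 0.17). In bulk tissue, fewer cells of a type and less RNA per cell cannot be told apart. Among 21 genes of one-carbon metabolism and the urea cycle 4 rose and 3 fell (median 0.031), to be read against the same shares of all genes. Bhmt, which remethylates homocysteine with betaine, was at 1951, 2931, 2090.3 and 1873 CPM and 3379.8, 4366, 4336, 4142 and 4107 CPM and rose without overlap (log2 fold change 0.88, SE 0.17, adjusted p = 0.00162), whereas Arg1 and Ass1 of the urea cycle fell by 0.49 and 0.39 (adjusted p = 0.00429 and 0.04598), Ass1 in 2 of the 9 fits that left out 1 library and with overlapping groups. Libraries 39 to 45 alone had 5 pericentral rises, 4 periportal falls and 1 periportal rise. With MD + Veh replicates 4 and 5 alone 4 pericentral genes rose and no periportal gene was called, although all 5 periportal genes that fell over all libraries had a log2 fold change below 0 there, such as -1.12 for Cdh1 (adjusted p = 0.0534) and -0.49 for Gls2, a glutaminase (adjusted p = 0.0625), against -1.07 and -0.56 over all libraries. One-carbon and urea cycle genes had 3 rises and 4 falls in libraries 39 to 45 alone, and 2 and 1 with replicates 4 and 5 alone.

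Among 22 genes of the growth hormone axis and of sex-biased expression 4 rose and 2 fell (median -0.0078), against 4.74% of all genes higher and 5.63% lower. The counts were 3 and 3 in libraries 39 to 45 alone and 3 and 1 with MD + Veh replicates 4 and 5 alone. Lepr, the leptin receptor (chromosome 4, 101574601 to 101676237), was at 20.2, 11.3, 11.9 and 48.4 CPM in CD + Veh and 1.58, 3.28, 1.84, 4.72 and 5.41 CPM in MD + Veh. CD + Veh replicate 4 was the highest library, and the lowest CD library was still above all MD libraries (log2 fold change -2.78, SE 0.51, adjusted p = 0.00106). Sult1e1, an estrogen sulfotransferase that is nearly silent in male liver, was at 0, 0.143, 0.134 and 0 CPM and 2.28, 0.867, 1.57, 1.86 and 3.48 CPM. It was detected in all 5 MD libraries and in 2 of the 4 CD libraries (adjusted p = 0.000162). Ntrk2, a neurotrophin receptor, was at 1.99, 3.51, 4.496 and 3.77 CPM and 25.03, 10.1, 9.48, 12.8 and 28.97 CPM, higher in every MD library (log2 fold change 2.33, SE 0.42, adjusted p = 0.000877). Igf1 and Socs2, direct growth hormone targets, had log2 fold changes of -0.04 (SE 0.11) and 0.01 (SE 0.55). Of 37 nuclear receptor genes 3 rose and 4 fell (median -0.10), to be read against the same shares of 4.74% and 5.63%. Called besides Pparg and Nr1h4 were Nr4a2 and Nr6a1, which rose, Nr6a1 in 2 of the 9 fits that left out 1 library. Nr2c1, Nr3c2 and Esrra fell by 0.69, 0.63 and 0.505. Libraries 39 to 45 alone had 2 rises and 5 falls of nuclear receptor genes, and MD + Veh replicates 4 and 5 alone had no rise and 1 fall.

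Clock genes lay at different levels in the 2 diets. The liver clock runs on BMAL1 with CLOCK or NPAS2, which drive the Per, Cry, Rev-erb and PAR bZIP genes, and levels of each swing over the day. Of 7 genes on the activator side, which peak with Bmal1, 5 rose and none fell (median 0.83). Of 13 repressor and output genes 7 fell and none rose (median -0.91). Over all genes 4.74% were higher and 5.63% lower. Without MD + Veh replicate 1 the counts were 4 and 3, in libraries 39 to 45 alone 4 and 10, and with replicates 4 and 5 alone 1 and 4. Bmal1 (chromosome 7, 112806152 to 112914735) was at 2.61, 2.65, 4.76 and 2.22 CPM in CD + Veh and 13.9, 19.5, 15.5, 10.99 and 7.96 CPM in MD + Veh. Every MD library was higher, replicate 5 by the least (log2 fold change 2.15, SE 0.398, adjusted p = 0.001197). Npas2 was at 0.373, 0.645, 0.134 and 0.0674 CPM and 2.73, 7.99, 4.57, 2.09 and 1.39 CPM, without overlap (log2 fold change 3.601, SE 0.76, adjusted p = 0.00344). Dbp, an output factor that binds D-boxes (chromosome 7, 45354512 to 45359627), was at 122, 149, 113 and 169 CPM and 39.4, 24.96, 32.3, 46.05 and 82.3 CPM. It was lower on MD, with replicate 5 nearest to the CD libraries (log2 fold change -1.62, SE 0.46, adjusted p = 0.0232), and it was called in 6 of the 9 fits that left out 1 library. Per3 was at 30.4, 39.8, 22.9 and 45.5 CPM and 11.3, 5.39, 7.501, 11.6 and 23.2 CPM and fell (log2 fold change -1.56, SE 0.396, adjusted p = 0.0121), with an overlap between MD + Veh replicate 5 and CD + Veh replicate 3. Rgs16, a regulator of G protein signalling whose liver level follows feeding and the clock (chromosome 1, 153616091 to 153621228), was at 486, 431, 339.9 and 769 CPM and 13.3, 52.3, 17.1, 61.1 and 75.1 CPM, among the 10 largest falls (log2 fold change -3.54, SE 0.66, adjusted p = 0.00131). Nr1d1, the Rev-erbα gene, was at 89.8, 99.6, 152 and 97.1 CPM and 97.7, 87.96, 76.7, 95.3 and 119 CPM, overlapping (log2 fold change -0.2005, SE 0.25, adjusted p = 0.637). A clock score, the mean log2 CPM of Bmal1, Clock and Npas2 minus that of Nr1d1, Dbp, Per2, Per3, Ciart and Tef, was -4.88 to -3.66 in CD + Veh and -2.37 to 0.28 in MD + Veh. With this score as a covariate 391 genes were called, 317 of them among the 1410, and 1382 of the 1410 kept their sign. The score separates the diets, so effects of the clock and of the diet cannot be told apart with it, and the hour at which livers were taken is not given in the sources used here. With the covariate, 1.3% of all genes were called higher and 1.57% lower. Of the 19 cholesterol synthesis genes that fell, 18 were called lower with it as well, as were 9 of the 14 of fatty acid synthesis, and 8 of the 14 fatty acid oxidation genes that rose were called higher with it, while Rgs16 had a log2 fold change of -1.15 (adjusted p = 0.427). Other lists kept fewer calls. Of the 9 fructose and glucose genes that fell 1 was called lower with the covariate, and of the 5 periportal genes 1. Of the droplet genes, 4 of the 11 rises and 2 of the 3 falls were called. No one-carbon and urea cycle, nuclear receptor or chemokine gene was called with it.

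**Figure D3:**
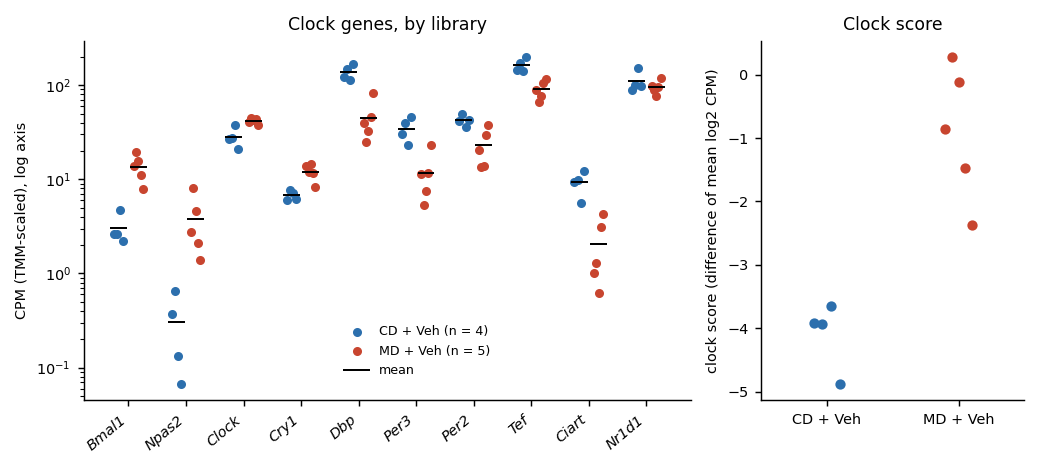
Left, CPM on a log axis of 10 clock genes in each CD + Veh (blue) and MD + Veh (red) library, with a black bar at the group mean. Right, the clock score of each library, a difference of mean log2 CPM: the 4 CD + Veh libraries lie between -4.88 and -3.66 and the 5 MD + Veh libraries between -2.37 and 0.28.

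The promoters of Ciart and Per3 are shown because these genes fell on MD and hold more than 1 copy of a motif. Capitals mark the E-box CACGTG, which BMAL1 and CLOCK bind, and the D-box TTATGTAA, which DBP and TEF bind. Both stretches are RefSeq sequence of build GRCm38.p6 upstream of the start.
Ciart, chr3:95882229-95882348 (-): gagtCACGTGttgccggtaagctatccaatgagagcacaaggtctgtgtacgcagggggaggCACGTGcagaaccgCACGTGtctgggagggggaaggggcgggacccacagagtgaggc
Per3, chr4:151044761-151044880 (-): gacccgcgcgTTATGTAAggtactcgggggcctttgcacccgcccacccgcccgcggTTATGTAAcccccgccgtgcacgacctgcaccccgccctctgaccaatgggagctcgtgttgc
In the 250 bases before the start, the E-box was found in 4 of the 11 repressor and output genes with an entry (36.4%) and in 9.85% of all 10106 tested genes with an entry. Of 5 genes on the activator side it was found in 1, Cry1. Cry1 is on that list by its time of peak and is itself driven by BMAL1. The D-box was found in 1 of the 11, in none of the 5 and in 0.653% of all. Ciart fell by 2.19 (adjusted p = 0.03003) and was called in 3 of the 9 fits that left out 1 library.

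Calls of immune and matrix genes varied by list, and are to be read against 4.74% of all genes higher and 5.63% lower. Of 21 chemokines and inflammatory mediators 3 rose and 1 fell (median 0.70), of 30 matrix genes 2 rose (median 0.54), and of 16 antigen presentation genes none was called (median 0.36). In libraries 39 to 45 alone the rises were 10, 11 and 9, where 7.44% of all genes were higher, and with MD + Veh replicates 4 and 5 alone they were 0, 0 and 1, where 2.54% were. Without MD + Veh replicate 1 the rises were 2, 0 and 0. The summed level of the matrix list was 2747 to 2955 CPM in CD + Veh and 2850.2, 2739.8, 2548, 2661 and 2443 CPM in MD + Veh, so that replicate 1 lay within the CD range and the other 4 below it. Yet 27 of the 30 matrix genes tested had a log2 fold change above 0, so this sum, which abundant members dominate, does not stand for most of them. The summed level of the chemokine list was 306 to 385 CPM and 376, 412, 393, 342 and 399.98 CPM. Replicates 1 to 3 were also the MD libraries with the most skeletal muscle and red blood cell RNA (summed levels of 517, 746, 420.3, 211 and 183 CPM for red cell genes in replicates 1 to 5), and the part of that RNA in these counts was not tested. Cxcl9, an interferon-γ induced chemokine, was at 11.3, 11.96, 9.06 and 12.999 CPM in CD + Veh and 25.4, 52.96, 54.7, 13.8 and 67.1 CPM in MD + Veh. Replicate 4 stood just above the CD libraries and the other 4 well above them (log2 fold change 1.92, SE 0.59, adjusted p = 0.0351), and the gene was called in 2 of the 9 fits that left out 1 library. Cd74, the invariant chain of MHC class II, was at 78.5, 56.4, 63.5 and 79.1 CPM and 189, 216, 197, 89.4 and 159.9 CPM, higher in each MD library but not past the threshold (log2 fold change 1.29, SE 0.45, adjusted p = 0.0603). Gpnmb, a marker of lipid-laden macrophages (chromosome 6, 49013426 to 49047863), was at 0.808, 0.501, 0 and 0.202 CPM and 9.76, 7.06, 5.25, 1.08 and 2.47 CPM. It was higher in every MD library, and in replicates 1 to 3 more than in 4 and 5 (log2 fold change 3.72, SE 1.05, adjusted p = 0.0226, called in 7 of the 9 fits). Trem2, which defines those macrophages, was at 0.5597, 0.645, 0.201 and 0.606 CPM and 1.58, 1.61, 1.77, 0.232 and 0.541 CPM, with replicates 4 and 5 within the CD range (log2 fold change 1.19, SE 0.82, adjusted p = 0.356). Of the 15 genes of that macrophage list 4 rose and 2 fell, and the falls were Cd9, called in 2 of the 9 fits that left out 1 library, and Fabp5. That list had 9 rises and 2 falls in libraries 39 to 45 alone, and 2 and 2 with replicates 4 and 5 alone. Col1a1, the main fibrillar collagen chain, was at 9.83, 10.3, 3.69 and 4.85 CPM on CD and 38.7, 18.1, 16.2, 6.42 and 7.57 CPM on MD. Replicates 4 and 5 again lay within the CD range (log2 fold change 1.29, SE 0.605, adjusted p = 0.168). Col4a2, of basement membrane, was at 24.9, 27.3, 18.6 and 23.8 CPM and 47.7, 38.1, 32.6, 28.5 and 32.5 CPM and rose without overlap (log2 fold change 0.604, SE 0.17, adjusted p = 0.0258), in 5 of the 9 fits that left out 1 library.

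Marker lists of the resident cells gave few calls over all libraries, where 4.74% of all genes were higher and 5.63% lower. Of 10 hepatocyte markers 2 fell, Alb and Apoa1 (median -0.28). None of 15 Kupffer cell markers and none of 12 sinusoidal endothelial markers was called (medians 0.58 and -0.051). Yet 14 of the 15 Kupffer cell markers had a log2 fold change above 0, against 4 of the 12 endothelial ones. The Kupffer cell list summed to 430 to 668 CPM in CD + Veh and 691 to 835 CPM in MD + Veh, without overlap. Libraries 39 to 45 alone had 5 rises and 1 fall of Kupffer cell markers and 1 endothelial rise, and replicates 4 and 5 alone had 2 Kupffer cell rises. Of 12 stellate cell markers 1 rose, Colec11 (0.55, adjusted p = 0.0144). Of 8 lymphocyte markers tested 1 rose, Cd4 (1.21, adjusted p = 0.0323, in 4 of the 9 fits), and of 9 bile duct markers 1, Krt23 (1.73, adjusted p = 0.00143). Stellate cell, lymphocyte and bile duct markers had 4, 2 and 2 rises in libraries 39 to 45 alone and 1, 0 and 1 with replicates 4 and 5 alone, and no hepatocyte marker was called in either. One of the 4 stellate cell rises was Des, at 155 CPM in MD + Veh replicate 1 and 13.4 and 11.7 CPM in replicates 2 and 3. Its log2 fold change was 3.29 in libraries 39 to 45 and 0.49 without replicate 1, the library with muscle genes. Skeletal muscle genes were the exception. Of 20 tested 17 were called higher on MD, and their summed level was 2.67, 68.6, 4.83 and 4.45 CPM in the CD + Veh libraries and 5259, 333, 196, 27.4 and 5.72 CPM in MD + Veh. Ckm, muscle creatine kinase, was at 0.249, 5.44, 0.134 and 0.202 CPM and 340.5, 20.3, 16.8, 1.703 and 0.232 CPM, so that the call rested on MD + Veh replicate 1 and, less, on 2 and 3. Without replicate 1 none of the muscle list was called, and with replicates 4 and 5 alone none. In PE mice too no muscle gene was called (median -4.85). Ckm was at 11.5 ± 25.1 CPM in CD + PE and 0.236 ± 0.276 CPM in MD + PE (SD), so its level in CD + PE varied widely between libraries. Among the 45 genes called with a log2 fold change of 4 or more, 32 had a change of -1 or lower in the PE mice, 13 of these 32 are on the muscle list, and none of the 32 was called without replicate 1. Without that library 1221 genes were called in all, 1102 of them among the 1410. The hemoglobin and red cell list summed to 147, 211, 193 and 221 CPM on CD, so that MD + Veh replicates 1 to 3 lay above and 4 and 5 within that range. The part that muscle or blood RNA had in the calls of other genes was not tested beyond leaving the library out.

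**Figure D4:**
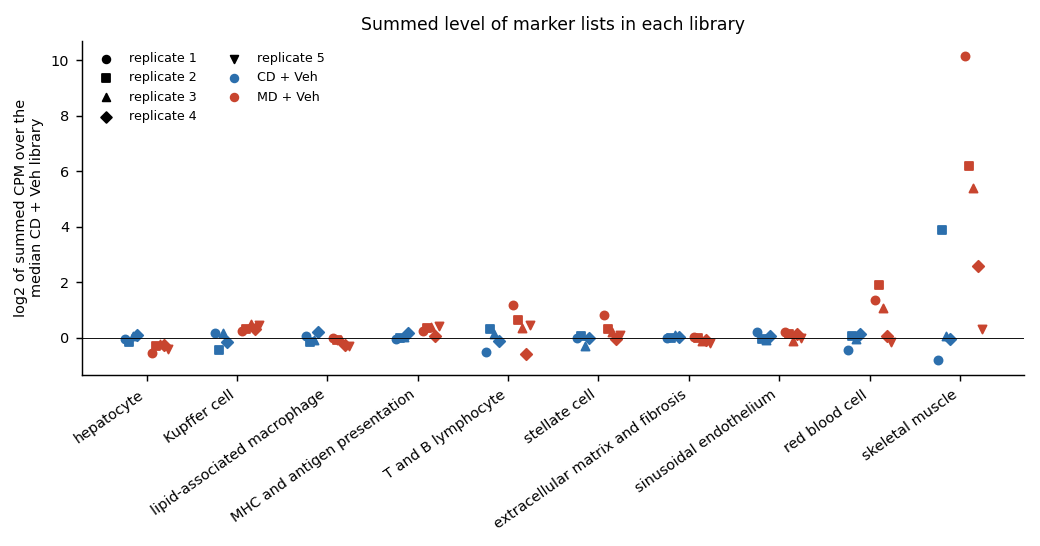
Log2 of the summed CPM of 10 marker lists (x axis) in each library over the median CD + Veh library (y axis), blue for CD + Veh and red for MD + Veh, with a symbol for each replicate number. Within MD + Veh, skeletal muscle genes range from 5.72 CPM in replicate 5 to 5259 CPM in replicate 1, and every other list spans a much narrower range. A sum gives most weight to the most abundant members of a list.

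Genes with the largest changes that belong to none of the lists included Chrna4, a nicotinic receptor subunit (chromosome 2, 180660173 to 180685339). It was at 53.2, 115, 48.1 and 151 CPM in CD + Veh and 3.803, 2.17, 1.09, 0.464 and 3.399 CPM in MD + Veh, a fall without overlap (log2 fold change -5.37, SE 0.47, adjusted p = 6.33e-07). Pdzk1ip1, Prss8 and Adgrf1, genes of epithelial membranes, fell, with log2 fold changes of -4.16, -3.54 and -3.203 (adjusted p at or below 0.000604). Among the rises, Sema5b, a semaphorin, was at 0.249, 0.788, 0.403 and 0.404 CPM and 6.15, 8.98, 7.36, 9.75 and 6.102 CPM, with all MD libraries higher (log2 fold change 4.05, SE 0.46, adjusted p = 8.93e-06). Themis, best known from T cell selection, was at 0.124, 0.501, 0.0671 and 0.674 CPM and 3.99, 7.43, 7.57, 5.88 and 3.399 CPM (log2 fold change 4.03, SE 0.52, adjusted p = 4.2e-05). Of 8 lymphocyte markers tested 7 had a log2 fold change above 0. Among these were Cd3e (0.41, SE 0.54) and Cd4 (1.21), the only one called. The part that T cells had in the Themis rise was not tested. Phospho1, a phosphatase for phosphocholine and phosphoethanolamine (chromosome 11, 95715264 to 95722973), was at 3.42, 4.44, 2.95 and 4.24 CPM and 31.6, 30.9, 30.1, 18.1 and 10.7 CPM, lowest among MD libraries in replicates 4 and 5 (log2 fold change 2.69, SE 0.32, adjusted p = 1.58e-05).

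The diet contrast was repeated in the 10 PE-gavaged mice, MD + PE (n = 5) against CD + PE (n = 5), which share no library with the vehicle groups. There 627 genes were called (4.61%), 230 higher on MD (1.69%) and 397 lower (2.92%). Total counts were 10398820 to 12757617 per PE library, below every vehicle library, of which the lowest held 13406037. The part of depth in the number of calls was not tested. Called in both were 393 genes, 27.9% of the vehicle calls and 62.7% of the PE calls, and all 393 went the same way, 142 up and 251 down. Of the 1410 vehicle calls 1282 had the same sign in PE mice (90.9%), against 69.4% of all genes tested, and their median absolute change there was 0.367. Cholesterol synthesis had 19 falls in PE mice too, with a median of -1.87, and fatty acid synthesis 13 with no rise. Sqle fell by 5.46 and Fabp5 by 3.696 in PE mice, and Cfd rose by 6.94 (adjusted p = 5.39e-07, 8.4e-07 and 6.91e-08). Fatty acid oxidation had 3 rises and 1 fall there. No pericentral gene was called in PE mice (median 0.054), while 4 periportal genes fell (median -0.33). Elovl3, which rose with vehicle, had a log2 fold change of -0.12 with PE and was not called. Neither clock list had a call. Bmal1, Npas2 and Dbp had log2 fold changes of 0.28, 0.34 and -1.04 in PE mice (adjusted p = 0.691, 0.7995 and 0.171). Clock scores were -3.21 to 0.85 in CD + PE and -2.001 to 0.077 in MD + PE and so overlapped.

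A test of the difference between the 2 diet effects called 1 gene of 13597 (0.00735%), while 1193 genes were below 0.05 before adjustment. By DESeq2 85 were called, by a fit with the replicate number as a block 41, and by the fits that left out 1 library 0 to 3. A gene called with vehicle and not with PE is thus not shown to respond differently, apart from that gene, Uck1, which itself was not called in 10 of the fits that left out 1 library. All PE libraries and no CD + Veh library lacked counts of Rps6-ps4, so the gavage and that division of the libraries cannot be told apart in this test. Uck1 encodes a uridine-cytidine kinase of pyrimidine salvage (chromosome 2, 32145014 to 32150350). Uck1 was at 19.5, 24.4, 22.8 and 22.2 CPM in CD + Veh and 40.4, 43.7, 45.6, 46.4 and 43.1 CPM in MD + Veh, a rise without overlap (log2 fold change 0.98, SE 0.099, adjusted p = 2.37e-06). In PE mice it was at 34.6 ± 4.62 CPM on CD and 36.2 ± 3.94 CPM on MD (SD, n = 5 in each), and the diet effects differed by 0.91 (adjusted p = 0.024002). The next smallest p on the side of a larger effect with vehicle belonged to H1f2, a linker histone gene, Eps8l2, Ephx1 and Oat, none of which passed (adjusted p between 0.142 and 0.156). H1f2 was at 27.4, 28.1, 26.7 and 30.4 CPM and 57.7, 53.1, 47.4, 50.6 and 55.8 CPM with vehicle (log2 fold change 0.91, SE 0.12, adjusted p = 6.87e-05) and had a log2 fold change of 0.00 with PE. Eps8l2, an actin regulator, was at 38.2, 48.5, 57.1 and 30.4 CPM and 85.6, 100.5, 97.03, 78.3 and 70.4 CPM with vehicle (log2 fold change 0.99, SE 0.15, adjusted p = 0.000151), against -0.03 with PE. On the other side Epb41l5, a membrane cytoskeleton gene, fell with vehicle from 44.2, 44.3, 43.2 and 42.3 CPM to 27.95, 25.03, 25.2, 28.7 and 27.3 CPM (log2 fold change -0.698, SE 0.08, adjusted p = 5.61e-06), and its log2 fold change with PE was -0.16. Wnk4, Irf2, Mysm1 and Utrn followed, with differences of -2.51, -0.67, -0.53 and -0.65 that did not pass either (adjusted p between 0.153 and 0.216 for these 5 genes).

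**Figure D5:**
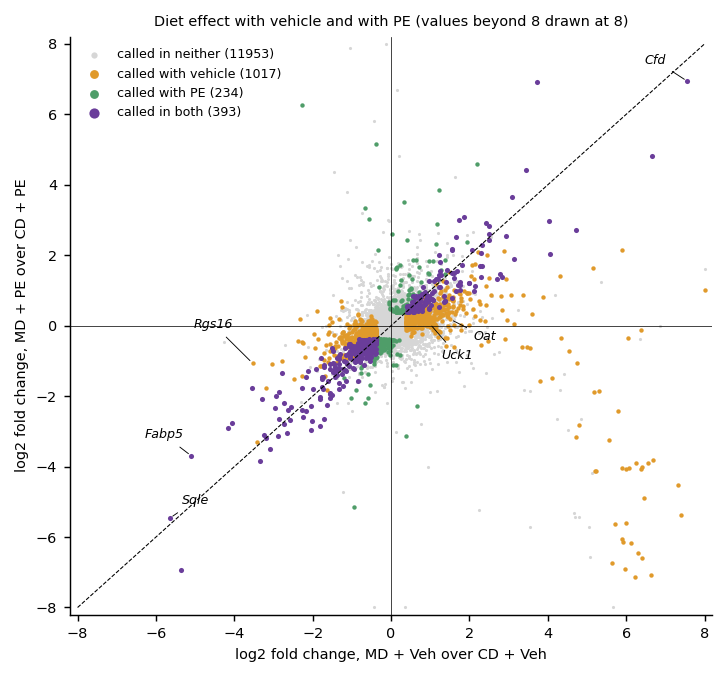
Log2 fold change of MD over CD in vehicle mice (x axis) and in PE mice (y axis) for all genes tested, 1 point per gene, coloured by whether the gene was called with vehicle alone (1017), with PE alone (234), in both (393) or in neither (11953), with the line of equal change dashed and values beyond 8 drawn at 8. The 393 genes called in both lie at the lower left and upper right. A group of genes at the lower right, skeletal muscle genes among them, is high with vehicle and low with PE, and no muscle gene was called with PE.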

How the data were processed

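RNA was taken from snap-frozen livers, 1 library per mouse, selected by poly(A) and prepared with the xGen Broad Range kit. The authors trimmed reads with fastp 0.23.4, quantified them with Salmon 1.10.3 with a GENCODE mouse transcriptome (GRCm39), and used tximport to obtain gene values. The table deposited by the authors held expected counts, already whole numbers, for 55836 genes in 19 libraries, with no normalization. Salmon divides reads among similar transcripts, so values of near-identical genes (Cyp2c, Cyp3a, Cyp4a, Gsta, Orm, Acaa1a and Acaa1b, H2) are uncertain. Of 67 genes examined by library, 41 share exon bases with another annotated gene, and whether the counting used strand is not given in the sources used here.

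From these counts, edgeR 4.0.16 in R 4.3.3 filtered genes by group (filterByExpr), scaled libraries by TMM and fitted 1 coefficient per group to all 19 libraries. Quasi-likelihood tests compared MD with CD in vehicle mice, in PE mice, and the difference of these effects, with Benjamini-Hochberg adjustment over all 13597 genes. The limits for a call, 0.05 for the adjusted p and 0.38 for the log2 fold change in either direction, follow the study's methods. DESeq2 1.42.0, which the study used, RLE scaling, other filters and fold limits, a replicate block, a clock covariate, library subsets and leaving out each library were alternatives. Scripts were tested on simulated counts. No pair of replicates was a copy: the same count was found in at most 1.74% of genes.

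Members, gene lists and alternatives were chosen with earlier results of these data known. The genes named were the 10 largest rises and falls by log2 fold change without overlap and with at least 5 CPM in the higher group, the 5 largest rises and falls in CPM, the key and up to 4 most significant called members of each list per direction, and the 5 smallest interaction p in each direction. Genes outside this rule, Ggps1, Cd36, Mogat1 and Fabp4, were chosen after their values were seen. Positions are from GENCODE vM39 (GRCm39), in which 99.0% of genes tested were matched. Promoter sequences are from RefSeq (GRCm38.p6). An exact permutation test was used for total counts. Some genes are not reported here.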

Additional observations from a re-analysis of the deposited data

Results flagged for a closer look

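In 140 groups of 4 or 5 values tested, 14 had a library far from the others by Dixon's test, a rate to be read against about 1 in 20 by chance. Skeletal muscle genes summed to 68.6 CPM in CD + Veh replicate 2 and to 5259 CPM in MD + Veh replicate 1, and Ckm was at 5.44 CPM and 340.5 CPM in the same libraries. MD + Veh replicate 1 was also the highest of its group for Lpl (178 CPM) and the lowest for Apoe (27271 CPM) and Bhmt (3379.8 CPM). MD + Veh replicate 5 was the highest for Acly (443 CPM) and Pklr (581 CPM), the side of the CD libraries. MD + Veh replicate 3 was the highest for Cidea (9.41 CPM) and Orm3 (10.02 CPM). Of the CD + Veh libraries, replicate 4 was the highest for Plin2 (411 CPM) and Hamp (807 CPM), and replicate 3 for Bmal1 (4.76 CPM).

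The diet effect on Uck1 differed between vehicle and PE mice by 0.91 on the log2 scale, by edgeR's test of the difference.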

How the results depend on the processing

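Against 1410 calls, RLE scaling gave 1390, DESeq2 1579, no filter 1231, a stricter filter 1363, the 2 groups alone 1546 and no fold limit 1936. The clock covariate gave 391 calls, MD + Veh replicates 4 and 5 alone 747, and a fold limit of 1 439. Leaving out 1 library gave 1019 (without CD + Veh replicate 4) to 1479 (without MD + Veh replicate 5). For PE mice, against 627, the corresponding counts were 505 to 987 (without CD + PE replicate 2), 964 without a fold limit and 190 at a fold limit of 1. The test of the difference, which called 1, gave 85 with DESeq2, 41 with the replicate block and 0 to 3 without 1 library. It called 0 without CD + Veh replicate 1 or 4, MD + Veh replicate 2, 3, 4 or 5, CD + PE replicate 2, or MD + PE replicate 2, 3 or 5. The causes were not tested.

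Same-numbered CD and MD libraries had residual correlations of -0.126, 0.112, -0.0250 and 0.0793. No pairing of mice by number was seen, though these values were not tested and cannot exclude it. The replicate block gave 1448 calls, 1267 of them among the 1410.

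Of 245 genes named by the rule, 163 were called. RLE moved none across the threshold, DESeq2 ended 3 calls and added 4, and leaving out 1 library ended 8 to 32. The clock covariate ended 88 calls, 5 of them with a turned sign in genes that are part of the score itself: Ciart (0.78), Dbp (0.66), Tef (0.32), Per2 (0.27) and Per3 (0.27). With MD + Veh replicates 4 and 5 alone 68 of the 162 calls with a value ended, 2 of them with a turned sign, Ckm (-0.60) and Myh2 (-0.88). The difference in mean total counts, MD minus CD, lay between -686805 and -89226.2 without 1 library, with an exact permutation p of 0.268 to 0.914. Depth limits genes under about 1 CPM, such as Cidea in CD + Veh.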

Other observations

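Interferon-stimulated genes showed 1 rise among 25 tested, Rsad2 (1.11, adjusted p = 0.00757), with a median of 0.19. There were 3 rises in libraries 39 to 45 alone and none with MD + Veh replicates 4 and 5 alone. Of 24 genes of the endoplasmic reticulum stress and amino acid response, Atf4 and Ppp1r15a fell by 0.49 and 0.67 and none rose (median 0.076). Atf4 was called in 1 of the 9 fits that left out 1 library, Ppp1r15a had overlapping groups, and neither was called with MD + Veh replicates 4 and 5 alone. Among 23 cell cycle genes, Mcm2, of the replication licence, and Cdkn1a, which encodes the inhibitor p21, rose by 0.99 and 2.13, while Ccne1, cyclin E1, and Rrm2, of ribonucleotide reductase, fell by 1.05 and 0.88 (median 0.42). Cdkn1a and Ccne1 were each called in 4 of the 9 fits. Of 26 lysosome genes, the protease gene Ctsb and Psap, the saposin precursor, rose by 0.4004 and 0.53, and Ctsl and the ion channel gene Mcoln1 fell by 0.44 and 0.54 (median 0.10). Over all genes 4.74% were higher and 5.63% lower. In libraries 39 to 45 alone, where 7.44% of all genes were higher and 6.24% lower, 7 cell cycle and 8 lysosome genes rose and 1 and 3 fell. With MD + Veh replicates 4 and 5 alone, where the shares were 2.54% and 3.04%, no cell cycle gene was called, and 4 lysosome genes rose and 2 fell.

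Of markers for cells that a liver piece could carry, 3 of 11 monocyte and neutrophil genes passed the filter and none was called (median 0.58). The 5 tested red blood cell genes gave no call, and in libraries 39 to 45 alone 4 rose. Of 13 exocrine pancreas genes 1 was tested and it was not called, and of 11 intestinal genes 3 were tested and Fabp2 rose (1.08, adjusted p = 7.56e-06). Fabp2 was at 42.6, 47.4, 59.0 and 66.6 CPM in CD + Veh. Of the intestinal genes under the filter, Cdx1, Cdx2 and Reg3b were at 0 CPM in every CD + Veh and MD + Veh library, and Vil1 was at or below 0.645 CPM. The part of intestinal cells in the Fabp2 rise was not tested.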
